A study of Arabidopsis thaliana with 12 samples.

Results

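The flavonoid pathway of Arabidopsis was followed through 10 genes, taken by gene identifier whatever their values, out of 33557 annotated features measured. They are 7 enzyme genes (CHS, CHI, F3H, F3'H, FLS1, DFR and LDOX) and the flavonol regulators MYB11, MYB12 and MYB111. RNA came from root explants kept under conditions that induce shoots. Wild type was Col-0 gl1. The second line has CPL4RNAi in its titles and CPL4 KO in its genotype field, and the design text speaks of a knockdown. CPL4 is a phosphatase of the RNA polymerase II tail, and both lines have the Columbia background. Seedlings of 10 days lost their shoots, and the roots spent 5 days on callus medium and 72 hours on medium that induces shoots, holding the cytokinin 2iP at 0.05 mg/L or 0 mg/L, to be harvested at 18 days. Each of the 4 groups had 3 replicates, which the design text calls biological. The labels do not say whether a line was 1 clone or which promoter drives the construct.

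Flavonoids are made from the phenylpropanoid p-coumaroyl-CoA. CHS joins it to malonyl-CoA, CHI closes the ring, and F3H and F3'H add hydroxyl groups. FLS1 then turns dihydroflavonols into flavonols, whereas DFR and LDOX lead on to anthocyanins and proanthocyanidins. MYB11, MYB12 and MYB111 are related R2R3-MYB factors that activate the flavonol genes, and MYB12 is known as the main one in roots. The anthocyanin branch is switched on by complexes of MYB, bHLH and WD40 proteins. Flavonols made in roots are known to restrain auxin transport.

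The values are the authors' group FPKM, a level per transcript length and library size, with no value per replicate, so the spread between replicates is not shown. Calls use a threshold of 0.05 on the q-values of the authors' deposited table, from which every q below comes unless it is given as computed here. Each standard error (SE) is the one that the deposited p-value implies for a log2 fold. Where the p-value stands at its lowest value of 5e-05, with a q-value of 0.000272, only an upper limit of the SE is known. These values do not give the depth of the libraries, which is unknown. CPL4 stood at 14.5 and 13.9 FPKM in wild type without and with cytokinin, and at 36.3 and 32.2 in the RNAi-labelled groups. The level of CPL4 thus goes against the label. Whether reads from the construct are counted at CPL4 was not tested and cannot be told from group FPKM. Every genotype difference below is one between groups as labelled. The 6 root markers were present, with WOX5 between 41.2 and 155.1 FPKM, and 4 of 5 green tissue markers were under 1 FPKM in all groups. Of the 6 root markers, all tested, 3 were lower in the RNAi-labelled group in each medium, namely WOX5, PLT1 and SCR. SCR was lower by -0.65 without and -0.53 with cytokinin, while CASP1 was higher, by 1.55 and 1.94. Over all genes tested 21.5% and 24.7% were called lower without and with cytokinin, and 22.5% and 24.7% higher. The 6 markers summed to 292.2 and 246.0 FPKM in wild type and 190.0 and 133.5 in the other line. PLT1 and WOX5, which mark the root stem cell niche, were lower in the RNAi-labelled groups in both media (WOX5 by -1.49 and -1.71, PLT1 by -1.07 and -1.15 on the log2 scale). WOX5 alone had 155.1 and 135.1 FPKM in wild type, and 55.2 and 41.2 in the labelled groups. PLT2 and SHR were not called between the genotypes in either medium. PLT2 had 15.4 and 11.3 FPKM in wild type without and with cytokinin, and 17.0 and 12.7 in the labelled groups. Cytokinin lowered 4 of the 6 root markers in wild type and 5 in the RNAi-labelled groups, and raised 0. It called 3.71% and 8.88% of all genes tested lower. CASP1 fell the most, by -2.27 and -1.88. In bulk tissue, fewer cells of a type and less RNA per cell cannot be told apart. The part of such shifts in the genotype differences and cytokinin effects below was not tested.

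**Figure D1:**
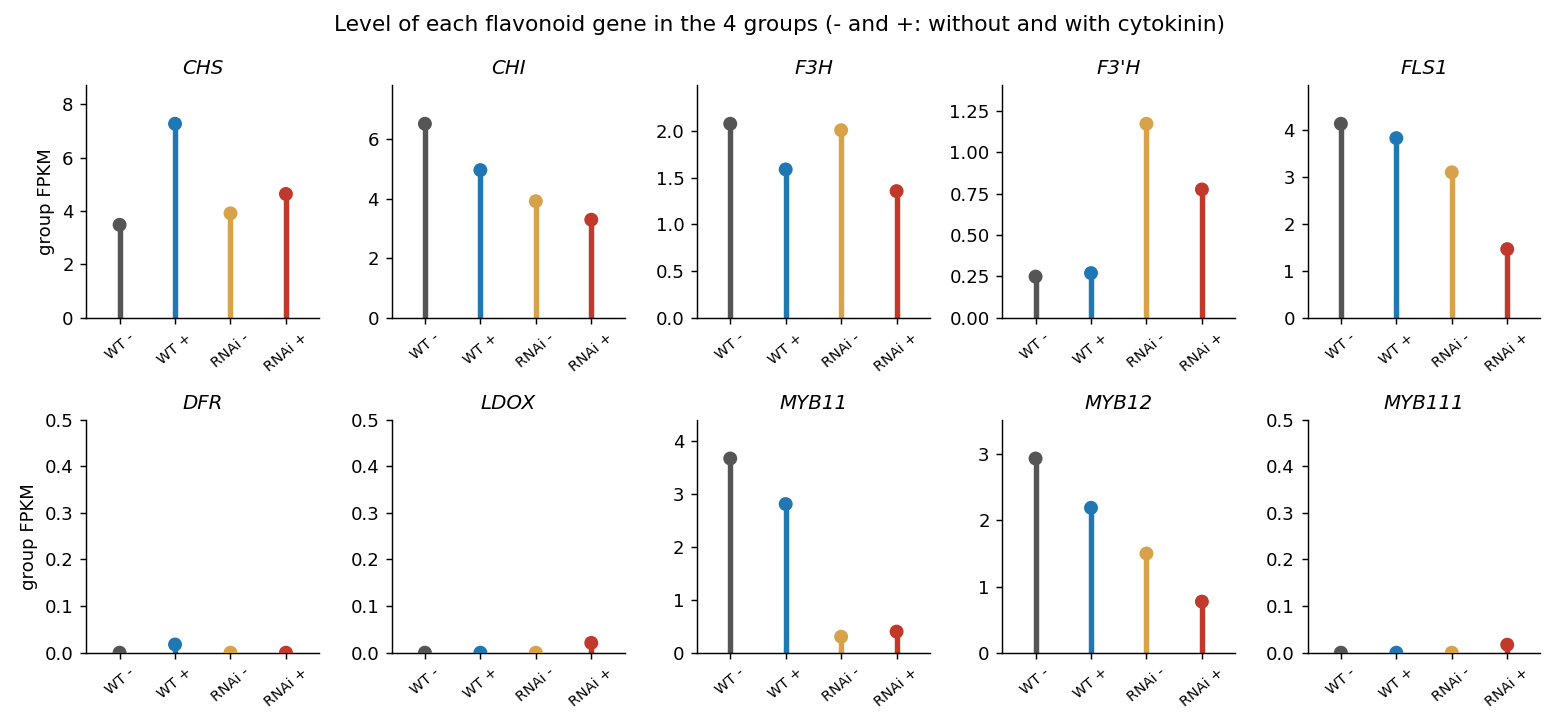
Group FPKM (vertical axes, each from 0) of the 10 flavonoid genes in wild type (WT) and in the RNAi-labelled groups (RNAi), without (-) and with (+) cytokinin, 1 value a group. DFR, LDOX and MYB111 stay at or under 0.021 FPKM, MYB11 is at 2.81 and 3.67 FPKM in wild type and at most 0.399 elsewhere, and CHS is highest in wild type with cytokinin.

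The 250 bases before the annotated start of each gene were read from the RefSeq genome (TAIR10.1) and searched for the G-box CACGTG, a palindrome bound by bZIP factors such as HY5, and on both strands for 3 AC elements bound by R2R3-MYB factors. The first element is ACCTACC, found before 1.16% of all protein-coding genes. The second is ACCAACC, found before 2.69%, and the third is ACCTAAC, found before 2.46%. The G-box was present before 4 of the 10 genes, CHS, F3H, DFR and MYB12, and before 6.49% of 27443 protein-coding genes. None of the 10 windows held an AC element, against 6.12% of all windows for any of the 3. No match overlaps another. Among the tested enzyme genes FLS1 had the lowest level relative to wild type under cytokinin. Shown here are the 4 windows with a G-box, in capitals, and that of FLS1, which holds none of the 4 motifs.
CHS (chr5:4488226-4488475, plus strand): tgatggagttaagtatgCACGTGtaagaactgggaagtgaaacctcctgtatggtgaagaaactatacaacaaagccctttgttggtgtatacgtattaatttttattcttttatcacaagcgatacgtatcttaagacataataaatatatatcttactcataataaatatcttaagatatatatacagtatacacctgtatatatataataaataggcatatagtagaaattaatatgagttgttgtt
F3H (chr3:19024942-19025191, plus strand): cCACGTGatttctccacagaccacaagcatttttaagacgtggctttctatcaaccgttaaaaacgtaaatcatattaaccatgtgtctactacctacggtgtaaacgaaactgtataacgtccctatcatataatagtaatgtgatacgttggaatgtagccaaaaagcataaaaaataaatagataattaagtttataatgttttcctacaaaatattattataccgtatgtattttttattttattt
DFR (chr5:17166033-17166282, minus strand): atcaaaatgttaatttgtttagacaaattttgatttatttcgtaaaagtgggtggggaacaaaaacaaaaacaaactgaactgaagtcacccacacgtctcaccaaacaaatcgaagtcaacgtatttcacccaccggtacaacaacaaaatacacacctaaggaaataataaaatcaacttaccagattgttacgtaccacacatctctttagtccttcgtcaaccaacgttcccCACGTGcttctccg
MYB12 (chr2:19476076-19476325, plus strand): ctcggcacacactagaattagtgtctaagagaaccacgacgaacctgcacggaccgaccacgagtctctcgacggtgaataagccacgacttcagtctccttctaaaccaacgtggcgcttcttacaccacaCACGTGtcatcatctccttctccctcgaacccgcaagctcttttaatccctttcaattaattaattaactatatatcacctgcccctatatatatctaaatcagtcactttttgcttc
FLS1 (chr5:2803583-2803832, plus strand): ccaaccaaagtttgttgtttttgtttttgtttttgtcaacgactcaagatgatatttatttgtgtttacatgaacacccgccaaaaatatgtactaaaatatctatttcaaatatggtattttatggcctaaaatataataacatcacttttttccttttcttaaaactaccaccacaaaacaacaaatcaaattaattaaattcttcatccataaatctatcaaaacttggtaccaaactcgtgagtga
The G-box lies at bases -233 to -228 from the RefSeq start in CHS, -249 to -244 in F3H, -14 to -9 in DFR and -118 to -113 in MYB12. The F3H window also overlaps the non-coding RNA gene AT3G51238 on the other strand. A match in letters is no measure of binding.

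Among the regulators, MYB11 differed most between the genotypes. MYB11 (AT3G62610; chromosome 3, 23154630 to 23156585, TAIR10.1) stood at 3.67 FPKM in untreated and 2.81 in treated wild type. The RNAi-labelled groups had 0.302 untreated and 0.399 treated. Both wild-type groups thus lay far above both labelled groups. The log2 genotype difference of MYB11 was -3.60 in medium lacking cytokinin (SE at most 0.89) and -2.82 in the other medium (SE at most 0.69), each with a q of 0.000272 in the authors' deposited table. With a pseudocount of 1 FPKM the differences were -1.84 and -1.45. The log2 difference of -0.39 (SE 0.20) with cytokinin in wild type was not called, and in the RNAi-labelled groups the gene was not tested. The RefSeq annotation has AT3G62615 overlapping MYB11 on the other strand. That gene is not among the deposited features, so its level is unknown. Reads of the pair can be told apart only where counting used the strand, which is not stated.

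MYB12 (AT2G47460; chromosome 2, 19476326 to 19479597) followed with smaller steps. It had 2.94 FPKM in untreated and 2.19 in treated wild type, against 1.50 and 0.772 in the RNAi-labelled groups. Its 4 levels descend from untreated wild type to the treated labelled group, although neighbours differ beyond the threshold only at the last step. Between genotypes MYB12 was lower by -0.97 without cytokinin (SE 0.25; q = 0.000516) and by -1.50 with it (SE at most 0.37). Cytokinin lowered it in the RNAi-labelled groups, by -0.96 (SE 0.31; q = 0.00882). The change of -0.42 in wild type (SE 0.21) was not called. A pseudocount of 1 FPKM moved the genotype difference with cytokinin to -0.85 and the cytokinin effect in the RNAi-labelled groups to -0.50. The cytokinin effects of the genotypes differed by -0.53, with a 95% interval from -1.27 to 0.21, which was not called (q = 0.678, computed here).

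MYB111 (AT5G49330), the regulator known for its role in shoots, was listed at 0 in 3 groups and at 0.0172 FPKM in the treated labelled group, and was not tested. The FPKM of the 3 regulators summed to 6.61 and 5.00 in wild type without and with cytokinin, against 1.80 and 1.19 in the RNAi-labelled groups. MYB11 contributed more than MYB12 in wild type, at 1.25 and 1.28 times its FPKM. In the labelled groups the same ratio of levels was 0.201 and 0.516. Which of the regulators was the more abundant thus depended on the genotype, a description for which no test was made.

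FLS1 (AT5G08640; chromosome 5, 2803833 to 2805606), the flavonol synthase, was lowest where the RNAi-labelled line met cytokinin. Its FPKM was 4.13 in untreated wild type, 3.82 in treated wild type and 3.10 in the untreated labelled group, and 1.46 in the treated labelled group. The last group stands apart, and the other 3 do not differ beyond the threshold from their neighbours in this order. Cytokinin lowered FLS1 by -1.08 in the RNAi-labelled groups (SE at most 0.27; q = 0.000272), while the log2 change in wild type was -0.11 (SE 0.18; q = 0.711). With cytokinin present the genotypes differed by -1.39 (SE at most 0.34; q = 0.000272), and without it by -0.42 (SE 0.20; q = 0.0901), which was not called. The difference of the cytokinin effects was -0.97 with an SE of at most 0.32. With that limit as the SE, the q computed here was 0.0808, which was not called.

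The entry enzyme CHS (AT5G13930; chromosome 5, 4488476 to 4490264) rose with cytokinin in wild type. It had 3.49 FPKM in untreated and 7.27 in treated wild type, against 3.91 and 4.64 in the RNAi-labelled groups. Treated wild type was thus the only group set apart, with the other 3 between 3.49 and 4.64. The rise in wild type was 1.06 (SE at most 0.26; q = 0.000272), and the change of 0.25 in the labelled groups (SE 0.18; q = 0.307) was not called. The difference of these effects was -0.81 (SE 0.25, 95% interval -1.31 to -0.32; q = 0.0464, computed here). That call ended at a threshold of 0.01, and also when genes with only a limit for the SE were left out (q = 0.0859, computed here). With cytokinin CHS was lower in the labelled group by -0.65 (SE 0.17; q = 0.000516), and without it the difference was 0.17 (SE 0.19; q = 0.550). CHS shares a deposited locus with AT5G13940 on the other strand, which is listed at 0 in all groups.

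CHI (AT3G55120; chromosome 3, 20430059 to 20431597), the isomerase of the next step, was lower in the RNAi-labelled groups in both media. Its FPKM was 6.51 and 4.95 in wild type without and with cytokinin, and 3.91 and 3.29 in the RNAi-labelled groups. The differences were -0.73 without cytokinin (SE 0.22; q = 0.00409) and -0.59 with it (SE 0.23; q = 0.0331), a call that ended at a threshold of 0.01. Neither cytokinin effect was called, at -0.39 (SE 0.20) and -0.25 (SE 0.24). The ratio of the CHI to the CHS level went from 1.87 in untreated wild type to 0.682 in treated wild type.

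F3H (AT3G51240; chromosome 3, 19025192 to 19026872), which acts next, was not called in any of the 6 pairs of groups. Its FPKM was 2.08 and 1.59 in wild type and 2.01 and 1.36 in the labelled groups, each without and with cytokinin. The lower value belonged to the cytokinin medium in both genotypes, at -0.39 (SE 0.24) and -0.57 (SE 0.26) on the log2 scale. The 95% interval of the genotype difference without cytokinin ran from -0.50 to 0.41, and with it from -0.76 to 0.30.

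F3'H (AT5G07990; chromosome 5, 2560328 to 2563137) was higher in the RNAi-labelled groups. This cytochrome P450, whose action leads to quercetin instead of kaempferol, had 0.249 and 0.270 FPKM in wild type. In the RNAi-labelled groups it had 1.17 and 0.775. On the log2 scale F3'H was higher in the labelled groups by 2.23 without cytokinin (SE 0.64; q = 0.00202) and by 1.52 with it (SE 0.48; q = 0.00584). The cytokinin effect was not tested in wild type and was -0.60 (SE 0.28; q = 0.0889) in the labelled groups. All these levels are low, and with a pseudocount of 1 FPKM the genotype differences were 0.80 and 0.48. With a minimum of 1 FPKM, F3'H was left out of the comparison with cytokinin and its call there ended.

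DFR (AT5G42800; chromosome 5, 17164093 to 17166032) and LDOX (AT4G22880; chromosome 4, 12004726 to 12006209), which open the anthocyanin and proanthocyanidin branch, were near or at 0. DFR was listed at 0.0176 FPKM in treated wild type and at 0 in the other groups. LDOX was listed at 0.0210 FPKM in the treated labelled group and at 0 elsewhere. Neither was tested in any pair of groups. The early enzymes CHS, CHI and F3H summed to 12.1, 13.8, 9.83 and 9.29 FPKM in untreated and treated wild type and untreated and treated labelled groups.

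**Figure D2:**
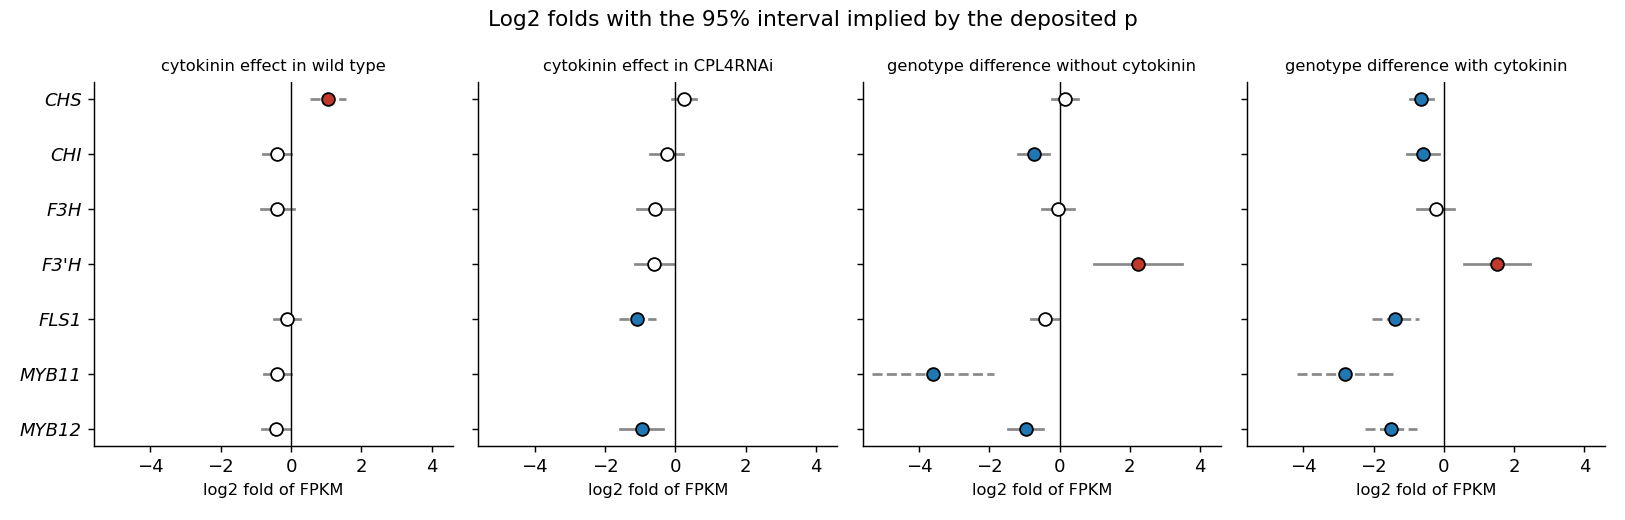
Log2 fold of group FPKM (horizontal axes) for the 7 flavonoid genes that the authors tested, in 4 comparisons, the genotype differences being RNAi-labelled groups over wild type. Red and blue points were called higher and lower, white ones were not called. Lines are the 95% interval that the deposited p-value implies, dashed where it is only the widest possible. MYB11 lies at -3.60 and -2.82 and F3'H at 2.23 and 1.52 in the genotype differences.

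Cytokinin in wild type called 1 of 6 tested members (CHS, higher), where 10.3% of 18827 genes tested were called, 6.58% higher and 3.71% lower. In the RNAi-labelled groups 2 of 6 were called (FLS1 and MYB12, lower), where 17.3% of 19156 genes were called, 8.42% higher and 8.88% lower. Without cytokinin the genotype difference called CHI, MYB11 and MYB12 lower and F3'H higher, 4 of 7 tested, beside 44.1% of 19277 genes (22.5% higher, 21.5% lower). With cytokinin it called 5 lower, namely CHS, CHI, FLS1, MYB11 and MYB12, and F3'H higher, 6 of 7 tested, beside 49.4% of 19209 genes (24.7% in each direction). With so few members the shares say little beyond the named genes. The median log2 fold over the tested members was -0.39, -0.58, -0.42 and -0.65 in these 4 comparisons, and that over all tested genes lay between 0.003 and 0.019. The difference of the cytokinin effects called 1 of 5 tested members, CHS, where 2.63% of 17946 genes were called, 0.502% higher and 2.13% lower.

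The remaining pairs of groups differ in genotype and medium together, and share groups with the comparisons above. The treated labelled group against untreated wild type had 4 members lower and 1 higher of 7 tested (51.6% of 19291 genes called, 26.4% higher and 25.2% lower). MYB11, MYB12, FLS1 and CHI stood at -3.20, -1.93, -1.50 and -0.98, and F3'H at 1.64 (SE 0.59; q = 0.0186). CHS and F3H missed the threshold there, with q-values of 0.0621 and 0.0502, and both passed it when adjusted within this pair alone or over genes of 1 FPKM or more. The call of F3'H ended at a threshold of 0.01 and with a minimum of 1 FPKM. The untreated labelled group against treated wild type had MYB11 and CHS lower, by -3.22 and -0.89, and F3'H higher by 2.11, 3 of 7 tested (44.0% of 19309 genes called, 21.4% higher and 22.6% lower). MYB12 was not called in that pair, at -0.55 (SE 0.24; q = 0.0578), and passed under the same 2 changes.

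The enzymes that feed the pathway rose with cytokinin in wild type. PAL, C4H and 4CL make p-coumaroyl-CoA, which also goes into lignin. Of 9 listed entry genes 7 were tested, and these 7 rose with cytokinin in wild type, while PAL3 and 4CL3 stayed under 1 FPKM. Over all genes tested 6.58% were called higher in that comparison, and 22.5% and 24.7% in the genotype differences without and with cytokinin. C4H went from 183.1 to 243.9 FPKM, and 4CL1 rose by 0.72 (SE at most 0.18), PAL4 by 0.62 (SE at most 0.15) and 4CL5 by 0.60 (SE 0.15). In the RNAi-labelled groups 1 rose and 2 fell, 4CL5 by 0.31 (q = 0.0402), PAL2 by -0.95 and PAL1 by -0.58. Cytokinin called 8.42% of all genes tested higher there and 8.88% lower. Without cytokinin 6 were higher in the labelled group than in wild type, 4CL1 by 1.45, 4CL5 by 1.41 and 4CL2 by 1.15. With cytokinin 4 were higher, 4CL5 by the most at 1.13, and PAL4 and PAL1 were lower, by -0.59 and -0.28. The share of all genes called lower was 24.7% in that comparison. The median genotype difference over the 7 tested genes was 0.96 without cytokinin and 0.36 with it, where the flavonoid genes had -0.42 and -0.65.

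**Figure D3:**
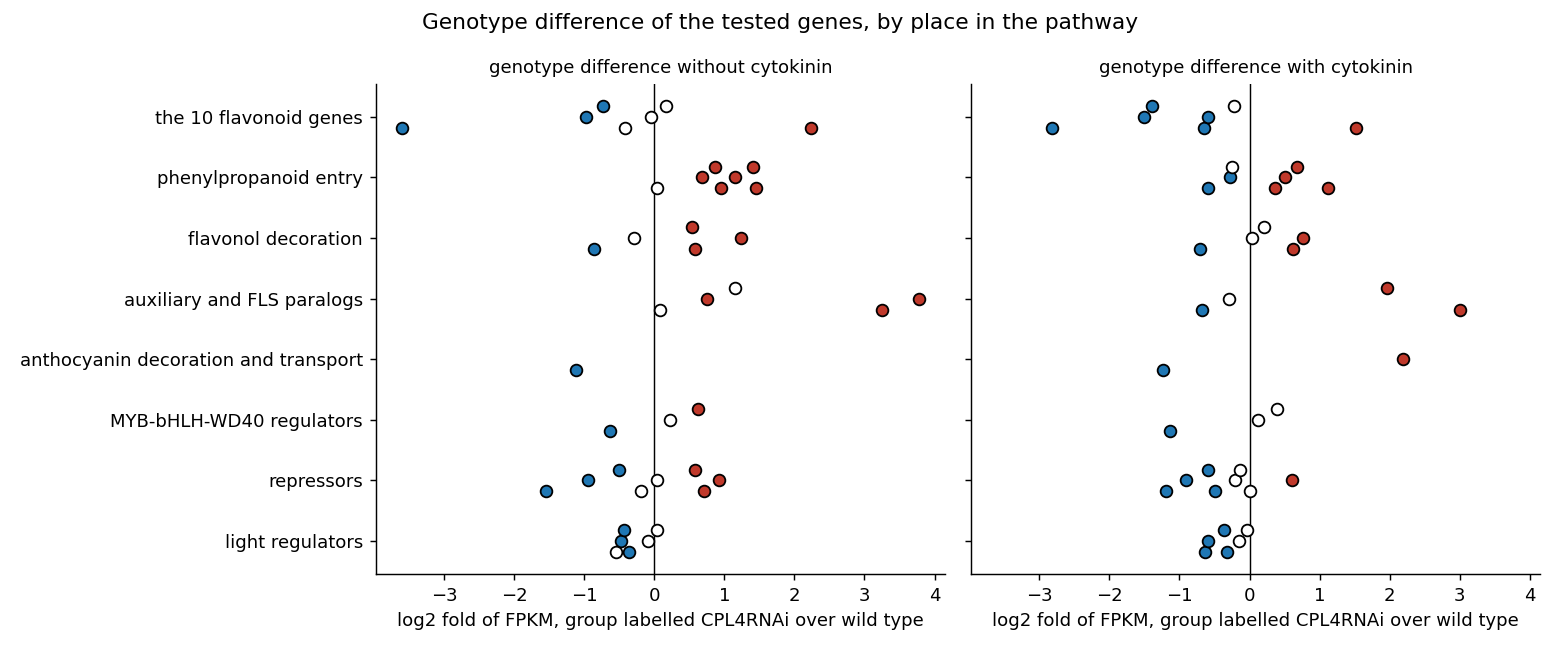
Log2 fold of group FPKM, RNAi-labelled groups over wild type (horizontal axes), for each tested gene of the flavonoid pathway lists, without cytokinin (left) and with it (right). Red and blue points were called higher and lower, and white ones were not called. Entry genes lie to the right without cytokinin (6 of 7 called higher), light regulators to the left (3 of 6 called lower).

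Beside FLS1 stands a family of related genes of which FLS1 is the main active enzyme. FLS2 to FLS5 lie in tandem on chromosome 5 and can share reads, so their split is uncertain. FLS3 (AT5G63590) had 2.49 FPKM in untreated and 6.08 in treated wild type, against 23.7 in both RNAi-labelled groups. It was thus higher in the labelled groups, by 3.25 untreated (SE at most 0.80) and 1.96 treated (SE at most 0.48), while FLS1 was not called or lower. FLS2 (AT5G63580) was also higher, by 3.78 (SE 1.31; q = 0.0136) and 3.00 (SE 1.00; q = 0.00975), with at most 2.38 FPKM, and with a pseudocount of 1 FPKM by 1.53 and 0.88. FLS5 (AT5G63600) was the most abundant, at 58.2 and 35.0 FPKM in wild type and 61.4 and 21.9 in the labelled groups. Cytokinin lowered it in both genotypes: -0.73 in wild type, with an SE of at most 0.18, and -1.49 (SE at most 0.37) in the other. CHIL (AT5G05270), a CHI-like protein that helps CHS, went from 3.09 to 3.54 FPKM when wild type was treated, and from 5.21 to 2.90 when the RNAi-labelled line was. Its fall there, by -0.85 (SE 0.24; q = 0.00161), was called, and so was its higher level in the untreated labelled group, by 0.75 (SE 0.24; q = 0.00601). Without cytokinin 3 of 5 tested genes in this list of 6 were called higher and 0 lower, where 44.1% of all genes were called. With it 2 of 4 tested were higher and 1 lower, where 49.4% were called.

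Enzymes that decorate flavonols were divided. UGT89C1, which adds rhamnose at the 7 position, went from 16.4 and 18.0 FPKM in wild type to 9.03 and 11.02 in the labelled groups, and was lower by -0.86 and -0.71 (SE at most 0.21 and 0.18). RHM1, which makes UDP-rhamnose, was higher by 0.54 and 0.62 (SE at most 0.13 and 0.15). UGT78D2, a flavonoid 3-glucosyltransferase, was higher by 0.58 without cytokinin (SE 0.17; q = 0.00279) and was not called with it, at 0.20 (SE 0.15; q = 0.329). UGT78D1, a flavonol 3-rhamnosyltransferase, was not called, at -0.29 (SE 0.24) and 0.03 (SE 0.22). OMT1, a methyltransferase that also serves lignin, was higher by 1.23 and 0.77 (SE at most 0.30 and 0.19). Of the 7 genes 5 were tested, of which 3 were higher and 1 lower without cytokinin and 2 and 1 with it. Over all genes 44.1% and 49.4% were called, in either direction. UGT78D3 and UGT73C6 were listed at 0 throughout.

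The anthocyanin and seed coat genes were mostly near 0, as DFR and LDOX were. Of 8 genes that decorate or move anthocyanins, 7 stayed under 1 FPKM in all groups. Among them UGT75C1, a 5-glucosyltransferase, was listed between 0.0334 and 0.801 FPKM and was called higher in the treated labelled group than in treated wild type (2.18, SE 0.92; q = 0.0485), or by 0.61 with a pseudocount of 1 FPKM. The exception in level was BGLU10, a glucosyltransferase for anthocyanins, at 20.5 and 21.5 FPKM in wild type. It was lower in the labelled groups, by -1.11 and -1.24 (SE at most 0.27 and 0.31). All 7 proanthocyanidin and seed coat genes were under 1 FPKM and none was tested. The anthocyanin regulators PAP1, PAP2 and MYB114 were listed at 0 in every group, and MYB113 and TT8 at no more than 0.0385 and 0.0117 FPKM.

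Of the 8 genes for the MYB-bHLH-WD40 complexes, only GL3, EGL3 and TTG1 were tested. These 3 also pattern the root epidermis. GL3 went from 3.02 to 2.32 FPKM when wild type was treated, and from 1.95 to 1.06 when the RNAi-labelled line was, an order like that of MYB12. It was lower in the labelled groups by -0.63 (SE 0.21; q = 0.00785) and -1.13 (SE 0.29; q = 0.000516), the latter -0.69 with a pseudocount of 1 FPKM. EGL3 was higher without cytokinin, by 0.62 (SE 0.24; q = 0.0324) or 0.35 with that pseudocount, and TTG1 was not called. Their epidermal partner CPC, which also represses anthocyanin genes, was lower by -0.95 and -0.91 (SE at most 0.23 and 0.22).

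Other repressors moved apart. MYBL2, a repressor of the anthocyanin branch, went from 2.36 and 1.59 FPKM in wild type to 0.812 and 0.694 in the labelled groups, by -1.54 (SE at most 0.38) and -1.19 (SE 0.45; q = 0.0249). With a pseudocount of 1 FPKM these were -0.89 and -0.61. MYB4 and MYB7, which repress phenylpropanoid genes, were higher without cytokinin, by 0.92 and 0.59 (SE at most 0.23 and 0.14). With cytokinin they were not called, at 0.01 (SE 0.12) and -0.21 (SE 0.14). LBD38, a nitrogen-linked repressor of anthocyanin genes, was higher by 0.72 and 0.60, while its relative LBD39 was lower by -0.50 and -0.49. The kelch F-box gene AT1G23390, whose protein marks CHS for degradation, was lower with cytokinin, by -0.60 (SE at most 0.15). In all, 3 of 8 tested repressors were higher and 3 lower without cytokinin, and 1 and 4 with it, beside 22.5% and 21.5% of all genes without cytokinin and 24.7% in each direction with it.

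The light regulators were lower or not called. HY5, a bZIP factor that activates CHS and MYB12, went from 28.2 to 25.8 FPKM when wild type was treated, and from 26.5 to 20.0 when the RNAi-labelled line was. It was lowered by cytokinin in the labelled groups, by -0.40 (SE 0.13; q = 0.00801), and was lower than in wild type with cytokinin, by -0.36 (SE 0.13; q = 0.0168). BBX21, a B-box partner of HY5, was lower by -0.47 and -0.59, and the UV-B receptor gene UVR8 by -0.43 and -0.32. HYH was called with cytokinin, at -0.64 (SE 0.26; q = 0.0441), and BBX22 without it, at -0.36 (SE 0.12; q = 0.00833). COP1, which degrades HY5, was not called, at 0.03 (SE 0.11) and -0.04 (SE 0.11). Of the 6 genes, all tested, 3 were called lower without cytokinin and 4 with it, and 0 higher. Over all genes 44.1% and 49.4% were called, 21.5% and 24.7% lower. The 3 of 6 without cytokinin is close to the share called in either direction. Both counts lie above the shares called lower, but with 6 genes these shares say little beyond the named genes.

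Likeness to CHS was measured over the 4 group levels, as the distance between log2 FPKM profiles each centred on its mean. Among genes of 5 FPKM or more in a group, the 6 nearest were AT4G18425, the multicopper oxidase-like gene sks4, AT4G11320, the zinc finger gene ZFP1, the patatin-like lipase gene AtPLAIVA and the annexin gene ANNAT1. Their distances ran from 0.116 to 0.217, where the median of all candidates was 0.882. That they lie under the median follows from their choice as the nearest. The other flavonoid genes, of which CHI alone reached 5 FPKM, had these distances to CHS, CHI at 1.16, F3H at 1.18, FLS1 at 1.41, MYB12 at 1.68, F3'H at 2.30 and MYB11 at 3.14. ANNAT1, for example, went from 35.8 to 64.1 FPKM when wild type was treated, and from 35.5 to 48.6 when the RNAi-labelled line was. With 4 values a gene these distances are a description.

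**Figure D4:**
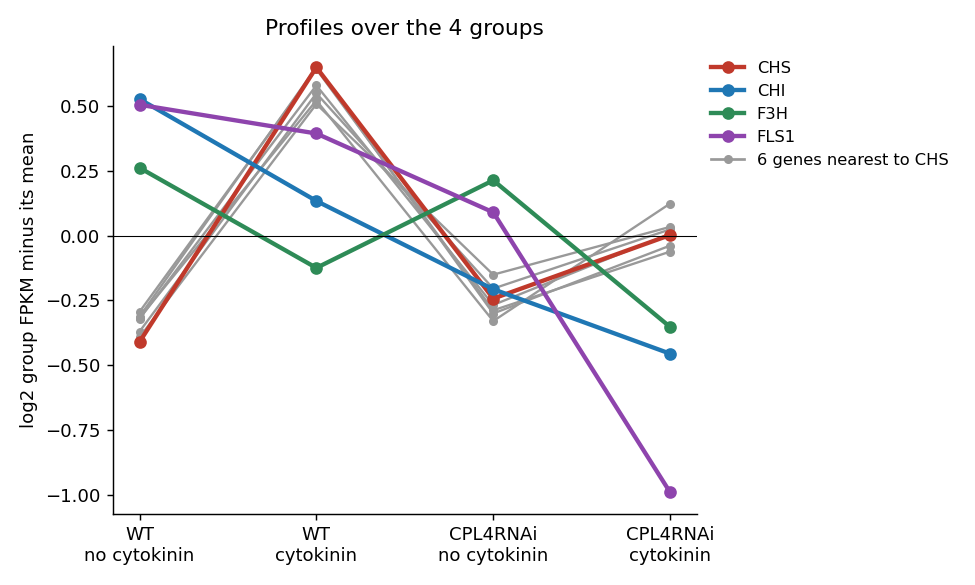
Log2 group FPKM minus its mean over the 4 groups (vertical axis) for CHS, CHI, F3H and FLS1 and, in grey, for the 6 genes nearest to CHS. CHS and the grey genes peak in wild type with cytokinin, while FLS1 is lowest, near -1, in the RNAi-labelled group with cytokinin.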

How the data were processed

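Total RNA of 12 samples was depleted of ribosomal RNA and made into stranded libraries, read as pairs of 125 nt, per the labels' protocols. Per the submitters' processing notes, the tools were bcl2fastq 2.17.1.14, TopHat2 2.0.14 and Cuffdiff 2.2.1.3 with the build TAIR10, and no options are given in the sources used here. The authors deposited FPKM per group and, for each pair of groups, a p-value and a q-value (adjusted p-value), per the file headers. Each q-value equals a Benjamini-Hochberg adjustment over the 115069 tests of the table (largest difference 5.28e-07).

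Folds are log2 ratios of group FPKM with no pseudocount added. Dividing a fold's size by the normal quantile for its deposited p-value gave the SE, and at the lowest p-value it is at most 0.247 of the fold. It reflects the variance the authors modelled, and no spread between single replicates could be computed. The SE of the difference of cytokinin effects came from pairs of comparisons that hold all 4 groups, with p-values at or under 0.95. Genes whose pairs differed by over 10% were left out (440), and 1325 of 17946 genes had only an upper limit. The adjustment ran over all genes tested, and the procedure was tested on simulated data.

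The 10 genes, the 10 lists (71 genes, with root and green tissue markers) and the tests were chosen with earlier results of these data known. All 10 genes were named, and from each list the called genes with the largest fold and those needed to show silence. List genes outside that rule (among them COP1, UGT78D1 and TTG1) were named after their values were seen. Sequences and coordinates are from RefSeq TAIR10.1. All deposited loci on chromosomes 1 to 5 lay within its chromosomes. Of those matched by identifier, 50.18% had at least 1 boundary identical to the RefSeq gene. Computation was in Python 3.11.15 (pandas 2.3.3, numpy 2.4.6, SciPy 1.17.1), with figures from matplotlib 3.10.9.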

Additional observations from a re-analysis of the deposited data

Results flagged for a closer look

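The cytokinin effect differed between the genotypes for CHS, by -0.81 on the log2 scale (RNAi-labelled groups minus wild type), and for 7 genes of the pathway lists. Each had a q at or under 0.05 over 17946 genes in a test of the difference itself, and each difference was negative. Among the entry genes PAL2 had -1.20, PAL1 -0.95, 4CL1 -0.94 and PAL4 -0.62. PAL1 rose in wild type, from 76.7 to 99.2 FPKM, and fell in the labelled groups, from 122.6 to 81.9. The phenylpropanoid repressors MYB4 and MYB7 had -0.91 and -0.79, and MYB4 went from 26.3 to 29.4 and from 49.9 to 29.6 FPKM. FLS5 had -0.76, being lowered in both genotypes. Of all genes called for this difference, 382 were negative and 90 positive. Of the 7 list genes, PAL2, PAL4, 4CL1, FLS5 and MYB4 had only an upper limit for the SE. Leaving out genes of that kind gave 158 calls in place of 472, 134 negative and 24 positive, with PAL1 and MYB7 among them and CHS not.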

How the results depend on the processing

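No paired analysis was possible because the table used here gives 1 value a group. For the same reason leaving out each replicate was not run. With a 2-fold minimum, the members called lower became 1 instead of 2 for cytokinin in the RNAi-labelled groups, 1 instead of 3 and 3 instead of 5 for the genotype difference without and with cytokinin, and 1 instead of 2 for the untreated labelled group against treated wild type. With an FPKM minimum of 1, F3'H left the genotype difference with cytokinin, and 0 members were called higher there. For the treated labelled group against untreated wild type, a threshold of 0.01 left 0 called higher, and adjustment within the pair gave 2. CHS, the member called for the difference of cytokinin effects, was lost at 0.01, under the 2-fold minimum and with solved standard errors alone (0 called each). With solved standard errors alone 158 genes in place of 472 were called for that difference. The other 58 counts and medians stayed within 1.5 times (counts) or the members' median SE (medians) of the values given. For single genes 249 checks kept the call or, for the pseudocount and recentring, the direction, 12 lost and 6 gained a call, and none reversed. F3'H, under the FPKM minimum, also lost its call in the genotype difference with cytokinin and in the treated labelled group against untreated wild type, where CHS was called higher instead. The pseudocount made the called folds of F3'H, MYB11 and MYB12 smaller by over 1.5 times, except MYB12 without cytokinin. Recentring moved folds by no more than 0.028. Without replicate values or depth, the precision of the low levels (DFR, LDOX, MYB111, F3'H) cannot be judged beyond the SE.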

Other observations

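The flavonoid genes stood in the lower part of the expressed features. CHS, the most abundant member in treated wild type, exceeded 40.7% of the features listed above 0 in that group and 30.4% in untreated wild type. CHI exceeded 39.5% in untreated wild type and 32.5% in the treated labelled group. MYB11 exceeded 31.0% and 27.5% in wild type and 15.1% and 15.9% in the labelled groups, while MYB12 lay between 20.0% and 28.6%.

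The level of FLS1 relative to CHS, which sets flavonol synthase against the entry enzyme, was 1.18 in untreated wild type and 0.526 with cytokinin. In the RNAi-labelled groups the ratio of levels was 0.791 and 0.315. It was lower with cytokinin in both genotypes. In wild type CHS was the gene of the pair that was called, and in the labelled groups it was FLS1.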
